A study of Mus musculus with 4 samples.

Results

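Slc46a1 encodes the proton-coupled folate transporter (PCFT), and the stretch described here is its gene with 5 kb before and after the start site, read CpG by CpG in whole-genome bisulfite sequencing (WGBS) of 4 embryonic brains. The gene was chosen on the difference between Tet1 KO and WT embryos under excess folic acid (FA, 30 ppm in the diet), so the values of the gene in those libraries are a description without a test, and Slc46a1 was tested only between KO and WT under control FA (3 ppm). On mm10 (GRCm38.p6) the gene lies on the plus strand of chromosome 11, from its start site at 78465697 to 78472059, and the region from 78460697 to 78472059 (11363 bp) overlaps no other annotated gene. Of its 178 CpGs in the reference, 108 had at least 5 reads in all 4 libraries, against 14907672 such CpGs on all autosomes. Within 1 kb of the start site in both directions, called the promoter here, 28 of 74 CpGs passed this filter.

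The 4 libraries came from E11.5 brains of male embryos, 1 embryo per group. The groups were KO under excess FA, WT under excess FA, KO under control FA and WT under control FA. All carried or lacked the Tet1<tm1Koh> allele on the 129S6.cg background, and the diets were those of their heterozygous dams. The paper states that both diets also held an antibiotic, succinyl sulfathiazole. The allele was first held on C57BL/6 and backcrossed to 129S6, and the reference genome is C57BL/6J. For embryos of the same names, a sample list of the study for another assay gives a neural tube defect in the 2 KO and none in the 2 WT, so genotype and phenotype cannot be told apart here if these are the same embryos. With 1 library per group there is no replicate error. The sample titles name a different timed pregnancy for each embryo, so KO and WT were not littermates on either diet. The genotype, the diet, the litter and the library therefore cannot be told apart. Intervals of levels below are 95% Wilson intervals, and those of differences are 95% Newcombe intervals. They cover counting error only, reads at neighbouring CpGs are often the same molecules, and Fisher's exact test on reads compares 2 libraries, not conditions. The files hold no expression values, so neither the tissue nor loss of Tet1 could be checked against marker genes.

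PCFT moves folates into cells together with protons and works best in acid surroundings. It is known for folate uptake in the gut and for folate transport across the choroid plexus into the brain. TET1 oxidises methylated cytosine, a step towards its removal, and it binds mostly at CpG-rich promoters. Such promoters are CpG islands, kept free of methylation, and their flanks, the shores, pass from the unmethylated core to the methylated genome around it. The paper cites earlier studies that place TET1 activity at these shores and at distal enhancers. Bisulfite sequencing reads methylated and hydroxymethylated cytosine alike.

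In the promoter, the difference between KO and WT under excess FA lay upstream of the start site, at the border between shore and island. By sequence (windows of 200 bp, at least 50% G and C, observed over expected CpG above 0.6) the island ran from -220 to +543 bp from the start site, 764 bp with 47 CpGs. The CpGs that carried the difference ran from -367 to -165 bp, a 204 bp stretch that crosses the upstream border of the island. The sequence around them, from GRCm38.p6, plus strand, is shown with every CpG in capitals. It holds 10 CpGs over chr11:78465310-78465549, which is -387 to -148 bp, and the first of them, at -383 bp, lies just outside the stretch.
upstream stretch: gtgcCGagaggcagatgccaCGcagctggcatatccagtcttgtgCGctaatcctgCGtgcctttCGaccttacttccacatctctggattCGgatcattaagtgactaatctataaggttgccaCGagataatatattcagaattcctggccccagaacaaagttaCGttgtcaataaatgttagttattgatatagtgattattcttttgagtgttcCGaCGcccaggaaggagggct

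Over the 9 CpGs of this stretch, 60.6% of 109 reads were methylated in the KO library under excess FA (51.2 to 69.2) and 23.4% of 171 reads in the WT library under excess FA (17.7 to 30.3). Under control FA the level was 44.7% of 159 reads in KO (37.1 to 52.4) and 35.8% of 159 reads in WT (28.8 to 43.6). KO under excess FA was thus the highest of the 4 libraries and WT under excess FA the lowest, with the 2 libraries under control FA between them. KO was 37.2 points above WT under excess FA and 8.81 points above it under control FA, where the intervals of both levels overlap. Between diets, the KO library under excess FA was 15.9 points above that under control FA, and the WT library under excess FA differed by -12.5 points from that under control FA. The stretch was cut from the excess FA values themselves, so these values show where the difference lay and support nothing further.

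**Figure D1:**
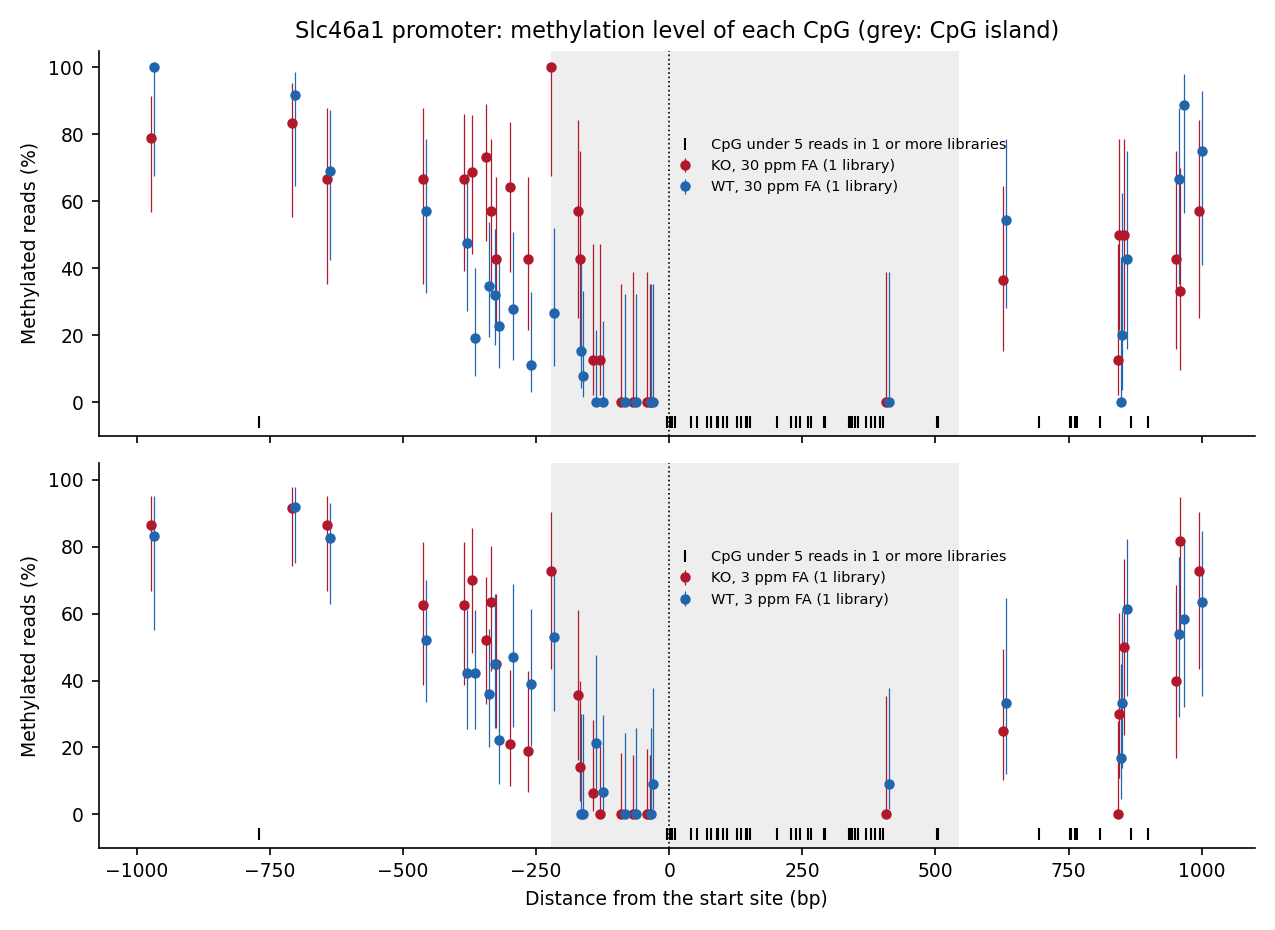
Methylation level (y axis, % of reads) of each CpG with at least 5 reads in all 4 libraries, by distance from the Slc46a1 start site (x axis, bp), for KO (red) and WT (blue) under excess FA (top) and control FA (bottom), 1 library each. Bars are 95% Wilson intervals, the grey band is the CpG island and ticks mark the 46 CpGs that failed the filter; red lies above blue at all 9 CpGs from -367 to -165 bp under excess FA and at 7 of them under control FA.

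CpG by CpG, the leading position was -220 bp, the first base of the island. It was methylated in 100% of 8 reads in KO and 26.7% of 15 reads in WT under excess FA, and in 72.7% of 11 reads in KO and 52.9% of 17 reads in WT under control FA. Under excess FA, where this CpG was picked as the highest difference, the intervals were 67.6 to 100% in KO and 10.9 to 52.0% in WT. Under control FA they were 43.4 to 90.3% and 31.0 to 73.8% and overlapped. The next position in the promoter, at -367 bp, had 68.8% in KO and 19.0% in WT under excess FA, from 16 and 21 reads, and 70.0% in KO and 42.3% in WT under control FA, from 20 and 26 reads. Here KO stood at close to the same level on both diets, and the WT library was the one that was lower under excess FA.

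Between them, at -342 bp, KO and WT had 73.3% and 34.6% under excess FA and 52.2% and 36.0% under control FA. At -331 bp they had 57.1% and 32.0%, against 63.6% and 45.0% under control FA. At -322 bp they had 42.9% and 22.7%, against 45.0% and 22.2% under control FA. In these 3 positions KO was the higher of the pair on both diets, and at -331 and -322 bp the KO level was no higher under excess than under control FA. The next 2 positions went the other way under control FA. At -296 bp KO and WT had 64.3% and 27.8% under excess FA but 21.1% and 47.1% under control FA. At -262 bp they had 42.9% and 11.1% under excess FA but 18.8% and 38.9% under control FA. At both, KO was the higher library under excess FA and the lower one under control FA, with KO minus WT of -26.0 and -20.1 points. These values under control FA were measured on 16 to 19 reads per library and passed no test, with an unadjusted Fisher p of 0.158 at -296 bp and 0.27 at -262 bp (exact test, two-sided).

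Closest to the start site, at -168 bp, KO and WT had 57.1% of 7 reads and 15.4% of 13 reads under excess FA, and 35.7% of 14 reads and 0% of 9 reads under control FA. At -165 bp, covered in each library by as many reads as -168 bp, they had 42.9% and 7.69% under excess FA and 14.3% and 0% under control FA. A count of 0 in 9 reads allows a level of up to 33.3% in WT under control FA if 3 over the read count is the bound, and 29.9% by the Wilson interval. Neither CpG was called there, with an unadjusted Fisher p of 0.116 at -168 bp and 0.502 at -165 bp (exact test, two-sided). On the outer side the contrast faded. At -383 bp the levels were 66.7% in KO and 47.4% in WT under excess FA and 62.5% and 42.3% under control FA, almost the same gap on both diets. At -459 bp they were 66.7% and 57.1% under excess FA and 62.5% and 52.0% under control FA. These values just outside the stretch, 19.3 and 9.52 points under excess FA, stand beside 20.1 points at -322 bp, the smallest difference inside it.

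On the inner side, the KO minus WT difference faded before -87 bp. At -141 and -127 bp, KO under excess FA had 12.5% at each and WT 0%, from 8 reads in KO and 14 and 12 in WT. Under control FA the order was the reverse, with 6.25% and 0% in KO and 21.4% and 6.67% in WT. From -87 to -33 bp the 4 covered CpGs had no methylated read in KO or WT under excess FA or in KO under control FA, and a single position, -33 bp, had 9.09% of 11 reads in WT under control FA. Under excess FA these zeros rest on 6 to 8 reads per CpG. They allow a level of up to 37.5 to 50.0% at a single position with 3 over the read count as the bound, and 32.4 to 39.0% by the Wilson interval. The 116 bp around the start site, chr11:78465597-78465712 (-100 to +15 bp), are shown with CpGs in capitals because they hold the transition into the core.
start site: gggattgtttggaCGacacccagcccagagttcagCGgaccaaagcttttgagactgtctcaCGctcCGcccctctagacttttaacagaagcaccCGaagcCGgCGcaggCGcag

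The core from the start site through exon 1 was the part the excess FA libraries hardly covered. The 35 CpGs from -4 to +401 bp (chr11:78465693-78466098; exon 1 with the translation start, and the first part of intron 1) all failed the filter. In KO under excess FA 10 of the 35 had at least 5 reads, in WT under excess FA also 10, and in each library under control FA all 35. The mean was 3.69 reads per CpG in KO and 2.14 in WT under excess FA, and 12.9 in KO and 10.1 in WT under control FA. In WT under excess FA, 17 of the 35 were not listed, and the tables list a CpG only from 2 reads on. Depth over all autosomes differed far less, with 13.2 and 14.3 reads per listed CpG in KO and WT under excess FA and 21.2 and 16.2 under control FA. Those means leave out unlisted CpGs, which the means over the 35 CpGs include as having no reads. The core was not compared with other start sites, and missing reads were not particular to Slc46a1. Usable bins around all start sites rose from 246512 to 283106 where only the libraries under control FA had to reach 5 reads. Where reads existed they were almost all unmethylated. The level over all reads of the 35 CpGs was 3.1% of 129 in KO and 5.33% of 75 in WT under excess FA, and 1.33% of 451 in KO and 0.563% of 355 in WT under control FA. The intervals under excess FA (1.21 to 7.7 and 2.09 to 12.9) overlap, and a difference of a few points was not detectable at this depth.

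**Figure D2:**
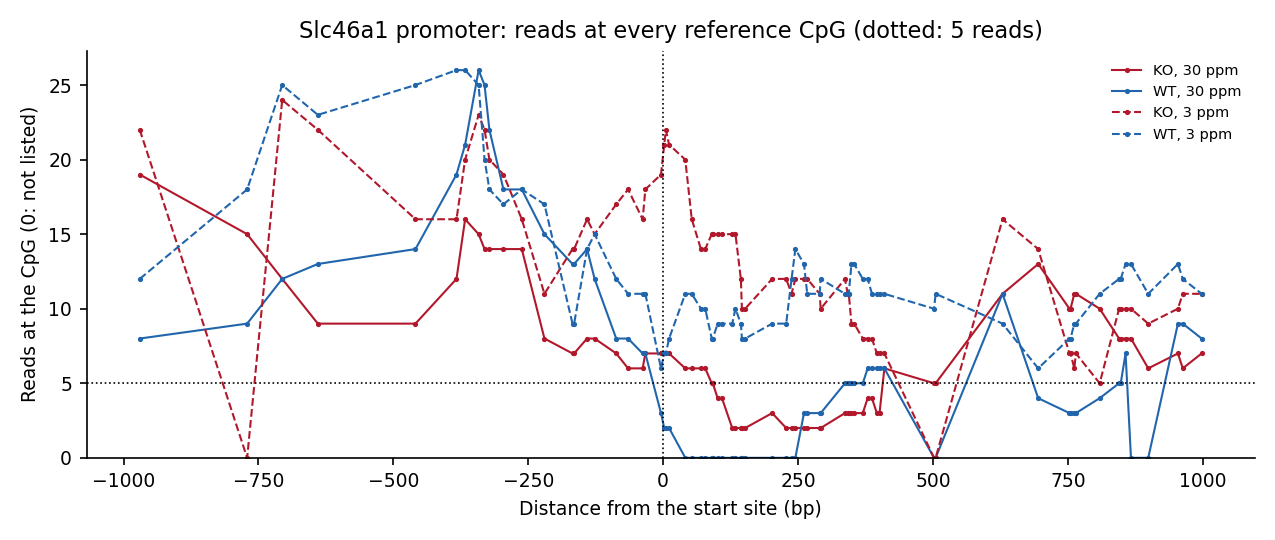
Reads (y axis) at every reference CpG within 1 kb of the Slc46a1 start site (x axis, bp) in the 4 libraries, KO red and WT blue, excess FA (30 ppm) solid and control FA (3 ppm) dashed; a value of 0 means that the CpG was not listed, and the dotted line marks 5 reads. KO under excess FA lies below the line from +101 to +401 bp, and WT under excess FA from -4 to +292 bp. Each has 10 of 35 CpGs from -4 to +401 bp at 5 reads or more, whereas both control FA libraries keep all 35.

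The gap bears on the promoter level. Of the 28 CpGs in the promoter level, 7 lay between -164 and +500 bp, where the reference has 42. Where only the 2 libraries under control FA had to reach 5 reads, 71 CpGs entered, and KO minus WT was -1.31 points there, in place of 1.16 points higher over the 28 CpGs. Under excess FA the same relaxation added 1 CpG and left the difference at 17.8 points, because the missing reads were in the excess FA libraries themselves. Over all reads of the 74 CpGs, with no minimum (an alternative added after the data were seen), the promoter had 35.4% of 506 reads in KO and 28.7% of 457 in WT under excess FA, and 21.9% of 960 and 24.2% of 906 under control FA. KO minus WT was then 6.71 points under excess FA, in place of 16.9 over the 28 CpGs, and -2.30 points under control FA. The WT level under excess FA was then 4.49 points above that under control FA, in place of the -7.93 points over the 28 CpGs. These levels pool zones that were read unequally. The zone from -164 to +500 bp gave 137 of the 457 WT reads under excess FA and 440 of the 906 under control FA. In KO it gave 177 of 506 and 558 of 960. By zone, WT had 23.4% under excess FA and 35.8% under control FA in the stretch, and 2.92% and 1.82% from -164 to +500 bp. It had 70.7% and 72.1% upstream of the stretch, and 45.9% and 34.3% downstream.

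Downstream of the island, the order of KO and WT under excess FA was the opposite of that upstream. Over the 7 covered CpGs from +501 to +1000 bp, in the end of intron 1 and the coding part of exon 2, KO had 40.0% of 55 reads (28.1 to 53.2) and WT 55.6% of 54 reads (42.4 to 68.0), a difference of -15.6 points. Under control FA KO had 42.3% of 78 reads and WT 46.3% of 82, a difference of -4.03 points with an interval of -18.9 to 11.1 (Fisher's exact test, two-sided, adjusted p = 0.99 over all start-site bins). The levels of all 4 libraries lay between 40.0 and 55.6%, intermediate between the core and the gene body. The 176 bp of exon 2 that hold 6 of the 7 CpGs, chr11:78466532-78466707 (+835 to +1010 bp), are shown with CpGs in capitals for comparison with the upstream stretch.
downstream shore: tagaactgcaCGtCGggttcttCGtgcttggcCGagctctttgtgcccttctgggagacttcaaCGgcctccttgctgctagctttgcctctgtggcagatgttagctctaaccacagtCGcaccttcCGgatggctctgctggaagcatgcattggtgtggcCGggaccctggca

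The downstream CpGs did not move as a block. At +963 bp KO and WT had 33.3% of 6 reads and 88.9% of 9 reads under excess FA, the lowest KO minus WT value of all 108 CpGs (-55.6 points), and 81.8% of 11 reads and 58.3% of 12 reads under control FA. At +848 bp KO and WT had 50.0% of 8 reads and 20.0% of 5 reads under excess FA, and 30.0% and 33.3% under control FA. Thus +963 bp was lower and +848 bp higher in KO under excess FA, on 5 to 9 reads per library. The remaining positions were +629 bp at 36.4% and 54.5%, +845 bp at 12.5% and 0%, +857 bp at 50.0% and 42.9%, +954 bp at 42.9% and 66.7% and +998 bp at 57.1% and 75.0% for KO and WT under excess FA, 3 of them lower and 2 higher in KO.

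Counted over the promoter, 10 of the 28 CpGs were at least 20 points higher in KO under excess FA and 3 at least 20 points lower, beside 12.2% and 3.66% of the 1495918 covered CpGs within 5 kb of protein-coding start sites. Of the 10, 9 were the CpGs of the upstream stretch and the other was +848 bp. Under control FA, 5 of 28 were at least 20 points higher in KO and 2 at least 20 points lower, beside 9.35% and 2.48% of all such CpGs. The mean over the 28 CpGs of the KO minus WT difference under excess FA was 11.0 points. The 9 CpGs of the stretch made up 12.6 points of this mean, the 7 covered CpGs from -164 to +500 bp 0.893, the 5 CpGs upstream of the stretch -0.112 and the 7 downstream CpGs -2.35. Pooled over reads, where the well-covered upstream CpGs weigh more, KO was 16.9 points above WT over all 28 CpGs and 0.864 points over the 19 CpGs outside the stretch, with 42.1% of 164 reads in KO (34.8 to 49.7) and 41.2% of 182 in WT (34.3 to 48.5). The stretch was cut from these same values, so a small remainder was set beforehand, and it sums zones that went opposite ways, 5.59 points upstream of the stretch, 4.17 in the core and -15.6 downstream.

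**Figure D3:**
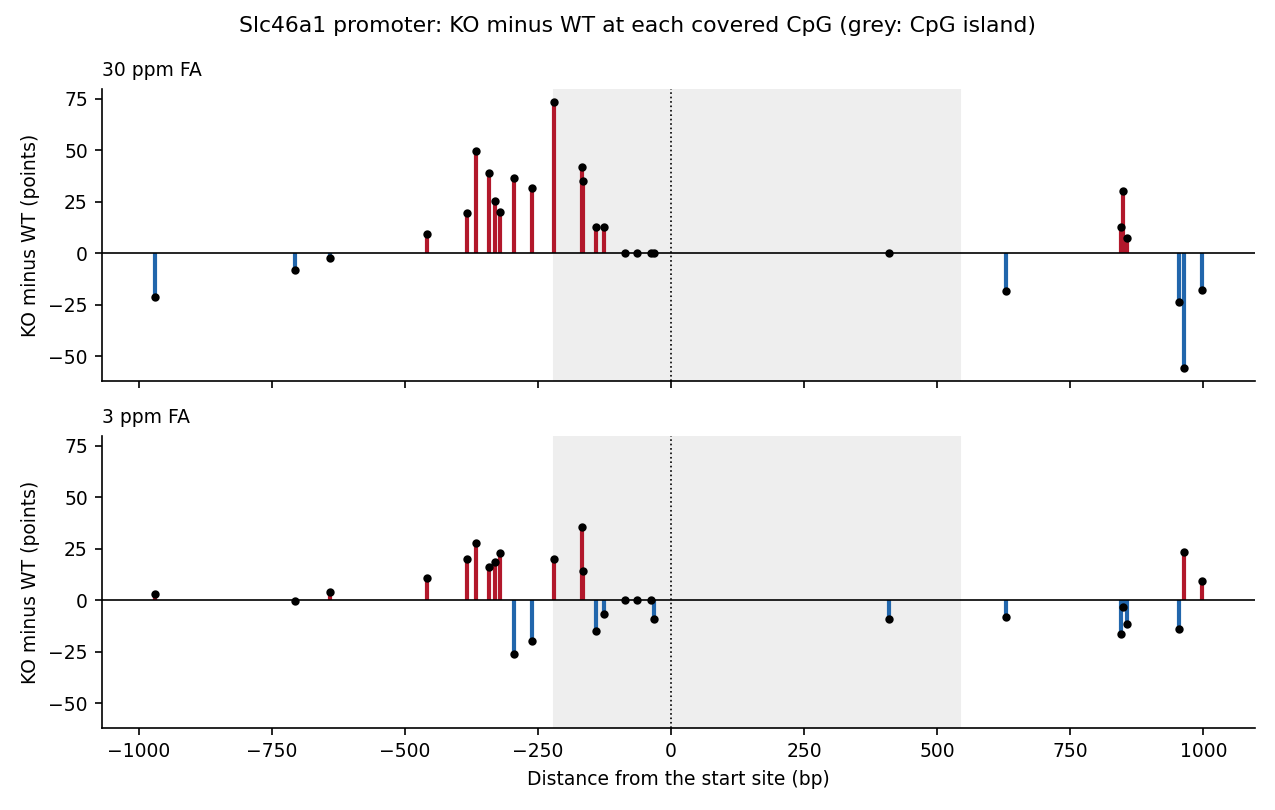
KO minus WT (y axis, percentage points) at each of the 28 covered CpGs of the Slc46a1 promoter by distance from the start site (x axis, bp), under excess FA (top) and control FA (bottom), red where KO was higher and blue where WT was higher; the grey band is the CpG island. Under excess FA all bars from -459 to -127 bp point up, the tallest at 73.3 points, while under control FA those at -296, -262, -141 and -127 bp point down.

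Across the 28 CpGs the KO minus WT difference under control FA had a Pearson r of 0.23 with that under excess FA, and across the 9 CpGs of the stretch one of 0.20. The 2 differences share no library, but neighbouring CpGs share reads and the depth differs between libraries, so these are descriptions only. All 9 CpGs were picked as higher in KO under excess FA. Under control FA 7 of the 9 were higher in KO and 2 lower. Beside them, 13 of the 28 CpGs of the promoter and 59 of the 108 of the region were higher in KO under control FA. No CpG of the 108 was at 80% or more in both libraries of one genotype and at 20% or less in both of the other.

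In 500 bp bins counted from the start site, with at least 3 covered CpGs per bin, 18 of 23 bins of the region could be used. The leading bin under excess FA was -500 to -1 bp (chr11:78465197-78465696, 17 CpGs), with 47.7% of 172 reads in KO (40.3 to 55.1) and 21.9% of 260 reads in WT (17.3 to 27.3), a difference of 25.8 points. Under control FA the same bin had 31.6% of 291 reads in KO and 30.3% of 284 reads in WT, a difference of 1.33 points with an interval of -6.21 to 8.84 (Fisher's exact test, two-sided, adjusted p = 1). The bin was picked for its difference under excess FA, and under control FA the interval includes 0. The value under control FA moved with the read minimum and the bin edges, to 9.20 points with a minimum of 10 reads, 8.86 in a bin of 250 bp and 7.97 with edges moved by 250 bp, none of them called. It was 0.0222 points with a minimum of 3 reads and 2.22 in a bin of 1000 bp. After thinning reads to the shallowest library it was -1.09 points, and 3.93 with a second seed. Among all genes with a usable bin at this position, KO minus WT had a median of 2.49 points under excess FA and 2.15 points under control FA, and Slc46a1 stood at percentile 96.5 and percentile 43.6.

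The second-highest bin was -2000 to -1501 bp, in the methylated flank, with 94.3% of 35 reads in KO and 76.0% of 50 reads in WT under excess FA and 93.0% of 100 reads and 92.6% of 54 reads under control FA. Here WT under excess FA was the library that stood below the other 3. With CpG levels averaged in place of pooled reads, this bin led, at 25.0 points under excess FA and -2.21 under control FA. The next by pooled reads was -4000 to -3501 bp, with 74.2% in KO and 65.8% in WT under excess FA and 72.7% and 86.3% under control FA, a difference of -13.5 points under control FA that did not pass the test (interval -26.4 to 1.26, Fisher's exact test, adjusted p = 0.444). The lowest bins were +5500 to +5999 bp, with 70.8% of 24 reads in KO and 90.2% of 41 reads in WT under excess FA and 96.4% and 83.9% under control FA, then +500 to +999 bp as given above, then -1000 to -501 bp, with 77.5% and 84.8% under excess FA and 88.2% and 86.7% under control FA. The order of KO and WT in these low bins under excess FA was reversed under control FA in the outer 2 and kept at +500 bp. Over all reads of the 17 CpGs from +501 to +1000 bp, with no minimum, KO had 36.4% and WT 34.3% under control FA and 33.3% and 45.9% under excess FA, so the order at +500 bp was then reversed as well. The bin from the start site to +499 bp, with 35 reference CpGs, had 1 covered CpG and could not be used.

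**Figure D4:**
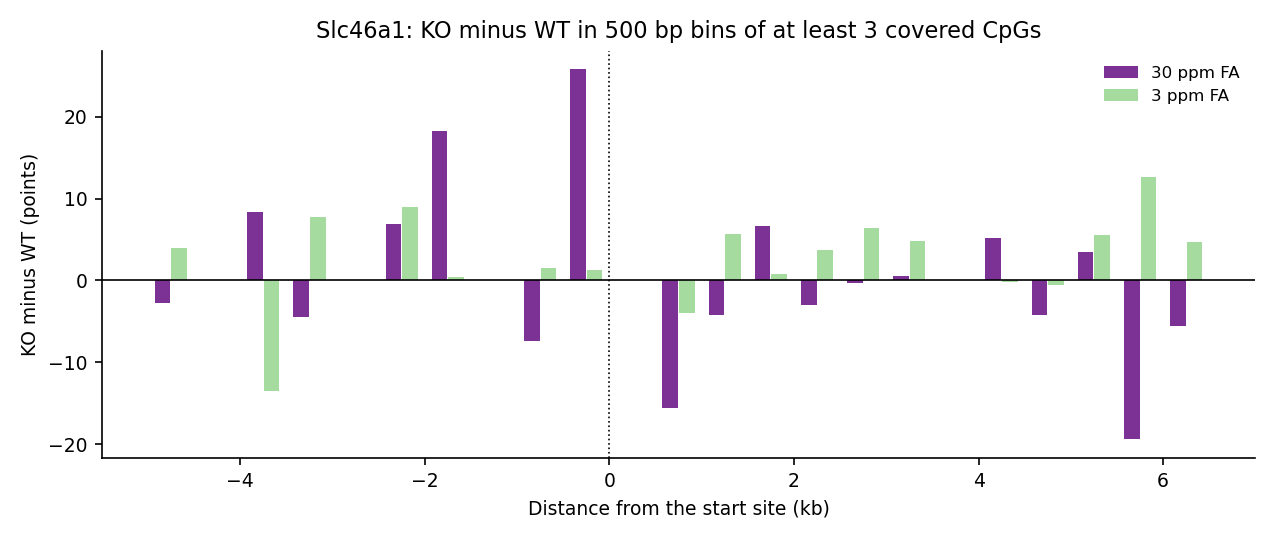
KO minus WT (y axis, percentage points) in 500 bp bins with at least 3 covered CpGs, by distance of the bin's centre from the Slc46a1 start site (x axis, kb), under excess FA (purple) and control FA (green), 1 library per group. The bin just upstream of the start site is highest under excess FA (25.8 points) and at 1.33 points under control FA (-1.09 to 9.20 with thinned reads, other read minima, bin edges or bin sizes), and no bin is drawn for the uncovered core.

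Over the region, 2 of 18 bins were at least 10 points higher in KO under excess FA and 2 at least 10 points lower, and 1 and 1 under control FA. Of the 15 bins that lie within 5 kb of the start site, 2 were higher and 1 lower under excess FA, beside 18.7% and 3.06% of 246512 such bins of all protein-coding genes, and 0 were higher and 1 lower under control FA, beside 14.5% and 2.75%. By Fisher's exact test with Benjamini-Hochberg adjustment, 4.50% of all bins were called higher in KO under control FA, and 3.70% under excess FA, a share given as background only. Under control FA no bin of Slc46a1 was called, none of the 15 had an unadjusted p under 0.05, and the lowest adjusted p was 0.353, at +2500 to +2999 bp (97.3% in KO and 90.8% in WT). A z value divided by its robust SD over all bins also called 0 of the 15, and 0 at an unadjusted p under 0.05.

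Single CpGs were tested under control FA in the same way. Of 99 CpGs of Slc46a1 within 5 kb of its start site, 0 were called by Fisher's exact test, beside 0.0149% of all CpGs called higher in KO, and 1 had an unadjusted p under 0.05. It lay at +1250 bp in exon 2, with 66.7% of 21 reads in KO and 100% of 14 reads in WT (unadjusted exact p = 0.0272, adjusted p = 1). Under excess FA the same CpG had 50.0% of 8 reads in KO and 73.3% of 15 in WT, lower in KO there as well. The robust z value called 0 and had 1 CpG at an unadjusted p under 0.05. The share of all CpGs past this unadjusted cut was not counted, so the CpG at +1250 bp is given as a description. With 7 to 30 reads per library at a CpG, only large differences could pass an adjustment over all CpGs.

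The promoter as a whole had under control FA a KO minus WT difference of 1.16 points with an interval of -5.32 to 7.63 (Fisher's exact test, two-sided, adjusted p = 0.876). Over the 8 CpGs with at least 10 reads in every library, 7 of them in the leading bin, it was 8.14 points, past the upper bound of that interval and not called. It was -1.31 points with 5 reads in the compared pair only, -0.156 after thinning reads to the shallowest library and -2.30 with no minimum. Within 2500 bp of the start site it was 5.38 points (Fisher's exact test, adjusted p = 0.0366), under the 10 points set for a call. Of all 19924 promoters of protein-coding genes, 16.6% were called higher in KO under control FA. The 5 upstream CpGs outside the stretch, from -970 to -383 bp, had 80.0% of 100 reads in KO and 68.5% of 111 in WT under control FA, and 73.8% of 61 and 68.2% of 66 under excess FA. Among all promoters, 21.0% under excess FA and 19.4% under control FA were at least 10 points higher in KO, and Slc46a1 stood at percentile 93.1 under excess FA and at percentile 34.5 under control FA.

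Beyond 1 kb the gene body was highly methylated in all libraries. Over 56 CpGs from exon 2 to the gene end, KO and WT had 89.2% of 517 reads (86.2 to 91.6) and 89.5% of 692 reads (86.9 to 91.5) under excess FA, a difference of -0.283 points. Under control FA they had 91.4% of 990 reads (89.5 to 93.0) and 87.9% of 874 reads (85.5 to 89.9), a difference of 3.54 points with an interval of 0.777 to 6.36 (Fisher's exact test, two-sided, adjusted p = 0.0477). That passed the threshold on p and stayed under the 10 points set for a call, which 2.72% of 19540 gene bodies reached as higher in KO. With the robust z value the adjusted p of the same difference was 0.845. Over the 13 CpGs with at least 10 reads in every library, KO minus WT was 2.29 points under excess FA and 0.0803 points under control FA (Fisher's exact test, adjusted p = 1). The 4 libraries thus lay within 87.9 to 91.4%.

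Within the gene body the lowest KO minus WT values under excess FA were at few reads. At +5770 bp, in the untranslated end of exon 5, KO had 40.0% of 5 reads and WT 84.6% of 13 under excess FA, and 94.4% and 84.6% under control FA. At +4921 bp, in intron 3, KO had 57.1% of 7 reads and WT 100% of 8 under excess FA, and 65.2% and 85.7% under control FA. The others were +1123 bp in exon 2, with 62.5% and 91.7%, and +6165 bp in exon 5 of the gene, with 60.0% and 88.9% under excess FA. All rested on 5 to 8 reads in KO under excess FA, where 1 read moves a level by over 10 points. Far upstream, 2 CpGs ranked among the 10 largest differences under excess FA, at -2843 bp with 77.8% of 9 reads in KO and 20.0% of 5 in WT, and at -1530 bp with 80.0% of 10 reads in KO and 40.0% of 5 in WT. Both had 5 reads in WT, the minimum allowed, and both were lower in KO under control FA, at 77.8% against 100% and 71.4% against 88.9%.

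The deposited lists of differentially methylated regions held none that overlapped the region, in any of the 8 lists of KO against WT and of excess against control FA. The nearest to the start site in the list of regions higher in KO under excess FA, 4436 in all, was 107 kb away, and in that under control FA, 4437 in all, 43.2 kb away. In the lists between diets the nearest region was 18658 kb away for higher and 4464 kb for lower in KO, and 18872 and 19213 kb in WT.

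At the promoter from -250 to +50 bp of the RefSeq start site, 4 bp downstream of the one used here, letters of 2 of 4 motifs searched on both strands were found. GGGCGG, the box bound by SP and KLF factors, occurred at -34 to -29 bp on the minus strand and is held by 35.7% of 32851 RefSeq promoters of the same length. GCGCANGCG, the core of the NRF1 motif, occurred at +4 to +12 bp and is held by 6.25% of them. CACGTG, the E-box, held by 7.15%, and CCAAT, held by 37.4%, were not in this window. Both matches lay in the start site sequence shown above, inside the island core and outside the stretch that differed under excess FA. The outer part of that stretch lay beyond the window and was not searched. The CpG within GGGCGG, at -33 bp, had 0 methylated of 7 reads in KO and of 7 in WT under excess FA. The CpGs within GCGCANGCG, at +5 and +11 bp, had 14.3% and 0% of 7 reads in KO and 0% of 2 reads in WT under excess FA, and 0% at both positions in both libraries under control FA.

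The promoters of 16 other genes of folate transport and retention give the setting for these values, all of them with at least 3 covered CpGs within 1 kb of their start sites. Under control FA 5 of the 16 promoters were called higher in KO, beside the 16.6% of all promoters. Under excess FA 6 were at least 10 points higher, beside 21.0%. By the same measures 0 were lower on either diet, and the share of all promoters lower in KO was not counted. Of all start-site bins, with no test, 2.75% were at least 10 points lower in KO under control FA and 3.06% under excess FA. The median of the list was 1.83 points under control FA, beside 3.31 over all promoters, and 4.30 points under excess FA, beside 3.93. The range was -7.66 to 31.3 points under control FA and -4.08 to 24.6 points under excess FA.

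Among the other carriers, Slc19a1, the reduced folate carrier, had 63.5% in KO and 44.8% in WT under excess FA and 66.3% and 48.8% under control FA (difference of 17.6 points, interval 6.58 to 28.1, Fisher's exact test, adjusted p = 0.0101). Slc46a2, a paralogue of Slc46a1, had 68.1% and 43.5% under excess FA and 75.2% and 43.9% under control FA (31.3 points, interval 24.2 to 38.0, Fisher's exact test, adjusted p = 2.95e-15). In both promoters KO was higher than WT by 17.6 points or more on each diet. Slc46a3, the other paralogue, had 6.91% and 3.49% under excess FA and 5.91% and 5.57% under control FA, an unmethylated promoter. The promoters of the folate receptors were highly methylated, Folr1 with 91.6% and 90.3% under excess FA and 86.7% and 92.7% under control FA, and Folr2 with 88.6% and 83.4% under excess FA and 91.9% and 89.3% under control FA. Neither was called under control FA (Fisher's exact test, adjusted p = 0.133 for Folr1 and 0.483 for Folr2).

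The other 3 called promoters were Izumo1r, which encodes the folate-receptor relative JUNO of the egg, Abcc3, an export pump, and Ggh, which removes the glutamate tail that retains folates in cells. Under control FA they were higher in KO by 15.8, 19.7 and 12.3 points (Fisher's exact test, adjusted p = 0.00163, 1.89e-06 and 0.0205), and under excess FA by 15.1, 23.4 and 17.9 points. The sixth promoter at least 10 points higher under excess FA was Abcc4, another export pump, with 65.3% in KO and 41.9% in WT under excess FA and 53.6% and 44.8% under control FA, where the difference of 8.76 points was not called (Fisher's exact test, adjusted p = 0.0586). Fpgs, which adds the glutamate tail, had 96.5% in KO and 96.3% in WT under control FA, a difference of 0.156 points. Under excess FA KO had 94.4%, and KO minus WT was -0.594 points. So close to full methylation KO could not have been 10 points higher than WT, and the small difference does not show an unaffected promoter.

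**Figure D5:**
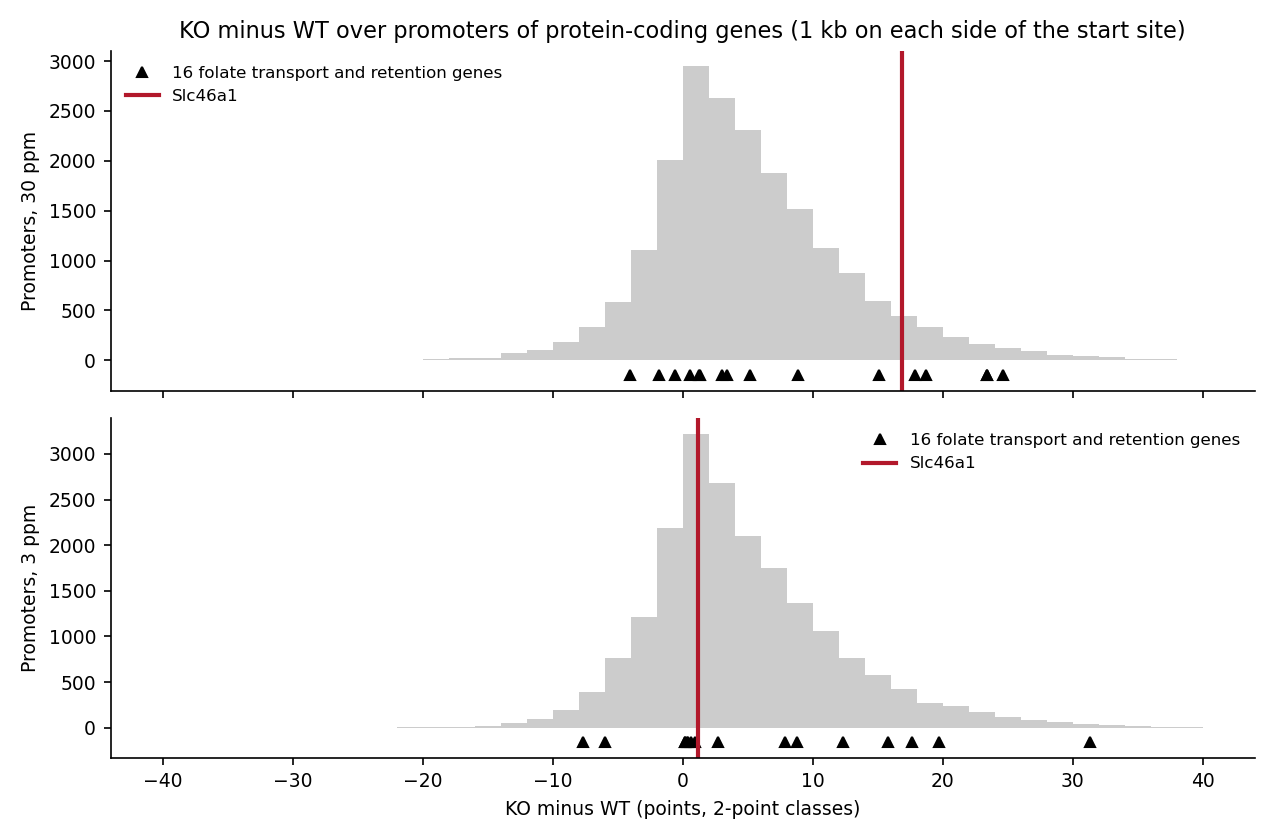
Number of promoters (y axis) by KO minus WT difference (x axis, percentage points, classes of 2 points) over 19924 promoters of protein-coding genes under excess FA (top) and control FA (bottom), with Slc46a1 as a red line and the 16 folate transport and retention genes as triangles; 16 and 23 promoters beyond 40 points are not drawn. Slc46a1 stands at 16.9 points under excess FA and at 1.16 points under control FA, while the triangles above 10 points under control FA number 5.

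The promoters whose 4 levels were nearest to those of Slc46a1, by Euclidean distance over the 4 libraries among 16322 promoters with at least 10 covered CpGs, were Zfp580 (2.05 points away), Alg9 (2.15), Cenpv (2.29), Zfp777 (2.38) and Mettl7a1 (2.73). In Zfp580 the levels were 48.9% in KO and 31.4% in WT under excess FA and 40.9% and 39.2% under control FA. In all 5, KO was above WT by 14.6 to 17.5 points under excess FA, and KO minus WT was -0.290 (Cenpv) to 4.63 points under control FA, values that the choice by distance sets.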

How the data were processed

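WGBS of 4 E11.5 brains, 1 library per group, was read from CpG tables. The authors trimmed reads with Trim Galore 0.6.10, aligned them with Bismark 0.23.1 to mm10 (GRCm38.p6), removed duplicates and merged both strands of a CpG. The deposited tables give the methylated fraction and the read count per CpG, from 2 reads on, with positions counted from 0; all 1111521 positions listed on chromosome 11 fell on a CG once 1 was added. Fraction times count gave whole methylated reads. Mitochondrial CpGs read 0.914 to 0.938% methylated. The deposited region lists hold positions per comparison and were used only for overlap; their values were not used.

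CpGs needed 5 reads in all 4 libraries, and a level was methylated reads over all reads. Bins of 500 bp needed 3 CpGs. GENCODE vM21 gave genes and start sites. Libraries at 3 ppm (at 30 ppm only for the share of all bins called) were compared by Fisher's exact test on reads, two-sided, with Benjamini-Hochberg adjustment over all features of a kind on autosomes (Python 3.11.15, numpy 2.4.6), and called at adjusted p under 0.05 and at least 10 points. For CpGs and bins these were all within 5 kb of protein-coding start sites. Promoters and gene bodies, the latter from 1 kb past the start site to the gene end, were adjusted over those of all protein-coding genes. The code was tested on simulated data. Intervals of differences are Newcombe intervals at 95%. Named were Slc46a1, the folate genes called or among 5 carriers and receptors, the 5 nearest promoters, the 3 highest and lowest bins, the 10 highest and 5 lowest CpGs and all CpGs of the leading bin. The gene, the list and the tests were chosen with earlier results of these data known. Fpgs and Abcc4 were named after their values were seen.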

Additional observations from a re-analysis of the deposited data

Results flagged for a closer look

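These 2 results stood apart because the libraries of the 2 groups moved in opposite directions, each with 1 library per group, and the difference was not tested. At the Slc46a1 promoter the level under excess FA (30 ppm) was 7.78 points above that under control FA in KO and differed from it by -7.93 points in WT, so that KO less WT was 15.7 points. Over all reads with no minimum, the level was higher under excess FA in both, by 13.5 points in KO and 4.49 in WT, and KO less WT was 9.01 points. That value pools zones read unequally. From -164 to +500 bp came 137 of 457 WT reads under excess FA and 440 of 906 under control FA, and 177 of 506 and 558 of 960 in KO. Within 2500 bp of the start site KO less WT was 3.25 points, with both below 0, and with CpG levels averaged it was 7.98 points. It was larger within 500 bp, at 23.3 points (15.2 in KO and -8.06 in WT), and with a minimum of 10 reads, at 21.1 points. That minimum left 8 CpGs, 7 of them in the leading bin. In the gene body beyond 1 kb KO minus WT was -0.283 points under excess FA and 3.54 points under control FA (3 ppm), a change of -3.82 points. With a minimum of 10 reads the values were 2.29 and 0.0803 points, a change of 2.21 points in the other direction.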

How the results depend on the processing

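Of 104 values under alternatives, 82 stayed on their side of the threshold, within the counting interval or within 1.5 times a count. Of these, 1 changed direction, the gene body difference at 30 ppm with a minimum of 10 reads, at 2.29 points. The adjusted p of the gene body difference at 3 ppm, 0.0477, was 1 with that minimum and 0.0733 with a second thinning. The promoter difference at 30 ppm became 29.2 points with a minimum of 10 reads (8 CpGs, 7 of them in the leading bin), 24.6 within 500 bp and 8.64 within 2500 bp of the start site, and 6.71 over all reads with no minimum, an alternative added after the data were seen. With no minimum it was -2.30 at 3 ppm, and the WT difference between diets turned from -7.93 to 4.49. That WT difference was -3.27 with a minimum of 3 reads, -3.86 with the pair only, -3.33 with CpG levels averaged, -3.26 within 2500 bp and -13.9 with a minimum of 10 reads. Leaving out each CpG in turn gave 14.8 to 18.7 points at 30 ppm and -0.0591 to 2.35 at 3 ppm. The promoter difference at 3 ppm turned to -1.31 with 5 reads in the compared pair only; after thinning reads to the shallowest library it was -0.156, and with a second random seed, added after the data were seen, 3.55; with a minimum of 10 reads it was 8.14, and within 2500 bp 5.38 (Fisher's exact test, adjusted p = 0.0366, under 10 points). The KO difference between diets, 7.78, was -0.00991 within 2500 bp, 4.65 with CpG levels averaged, 15.2 within 500 bp and 13.5 with no minimum. The leading bin began at -500 bp, or at -750 bp with edges moved and at -1000 bp with bins of 1000 bp, except with CpG levels averaged, where -2000 to -1501 bp led with 25.0 points at 30 ppm and -2.21 at 3 ppm; after thinning, the leading bin was at -1.09 points at 3 ppm, and at 3.93 with the second seed. At 3 ppm it was also 9.20 with a minimum of 10 reads, 8.86 with bins of 250 bp, 7.97 with edges moved and 0.0222 with a minimum of 3 reads. Bins at least 10 points higher at 30 ppm numbered 1 with a minimum of 10 reads and 1 with bins of 1000 bp; at 3 ppm they numbered 0 with a minimum of 10 reads, with edges moved by 250 bp or with bins of 1000 bp, and 2 with bins of 250 bp. Of all start-site bins, 11092 were called higher in KO at 3 ppm, 4825 with a minimum of 10 reads, 6287 and, with the second seed, 6392 after thinning and 3184 with the robust z value. The causes of these changes were not tested. No paired analysis was possible because each group holds 1 library. Depth limits the island core most, with a mean of under 5 reads per CpG from -4 to +401 bp in both 30 ppm libraries.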
